A study of Mus musculus with 8 samples.

Results

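The genes of MHC class II antigen presentation were followed in the epididymal fat pad of mice, a depot of white fat next to the testis. The 7 genes are H2-Aa, H2-Ab1, H2-Eb1, Cd74, H2-DMa, H2-DMb1 and Ciita, out of 18193 genes named on the array. They were grouped by their known function, with earlier results of these data known. Every probe set that the platform annotation pairs with them was taken, 16 of 45101 in all. A probe set is a group of short array probes that measures 1 transcript or a few alike. H2-DMb1 shared its 2 probe sets in the annotation with its neighbour H2-DMb2, so these could not be given to either gene. The other 14 had 1 gene symbol each.

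RNA of 8 male mice was hybridised to 3′ expression arrays, 1 array per mouse. The LPA4-KO mice (Lpar4 -/Y, n = 4) carried a deficient copy of Lpar4, the X-linked gene of a receptor for lysophosphatidic acid, and the WT mice (n = 4) were their littermates. Both groups were of the C57BL/6 background, 12 weeks old and kept on standard chow, and the labels name no driver that would limit the deficiency to a cell type. The comparison asked how genes of this fat depot differ without the receptor. All levels are the deposited log2 values. Group means carry the SD of their 4 mice, and differences (LPA4-KO minus WT) carry the SE from limma. The p-values measure the spread between these mice.

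MHC class II molecules are pairs of an alpha and a beta chain that hold peptides from engulfed proteins at the cell surface, where CD4+ T cells read them. Cd74, the invariant chain, escorts the pair and blocks its groove, and the DM pair (H2-DMa with H2-DMb1 or H2-DMb2) exchanges the remnant of Cd74 for peptide. Ciita is the coactivator that the family depends on. It docks on promoters through RFX, CREB and NF-Y bound at the X, X2 and Y boxes. In fat, macrophages, dendritic cells and B cells carry class II, and adipocytes can do so too. Mice of the C57BL/6 background make no alpha chain for the I-E molecule, so the H2-Eb1 chain has no partner at the cell surface.

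The array showed the labelled genotype at 1 of 3 Lpar4 probe sets. At 1452424_at the LPA4-KO arrays lay between 5.74 and 5.86 and the WT arrays between 6.48 and 6.54 (difference -0.71 ± 0.03, adjusted p = 0.0033 by limma), while 1434186_at and 1439665_at differed by 0.68 ± 0.24 and 0.48 ± 0.25 and did not pass (adjusted p = 0.23 and 0.39). No source used here places these probe sets relative to the deleted part of the gene. Array medians ran from 6.50 to 6.51. Of 34945 probe sets with 1 gene symbol, 6682 (19.1%) varied, meaning that their highest and lowest arrays were over 0.1 log2 apart, and the other 28263 are called nearly constant. Since no source used here says how such flat values arose, they do not show that a gene kept its level. Among adipocyte markers, the pair with the highest mean among varying ones was Cidec (13.02 ± 0.13 in LPA4-KO mice, 12.85 ± 0.08 in WT mice) and Retn (13.15 in LPA4-KO mice, 12.98 in WT mice).

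Promoters of 4 of the 7 genes were in the RefSeq promoter table (build GRCm38.p6), and the 3 with at least a pair of the motifs searched are shown. H2-Ab1, Cd74 and Ciita are named only. Each line gives 100 bases, from 120 to 21 bases before the start site, 5′ to 3′ on the gene's strand, for H2-Aa at chr17:34287844-34287943 (minus strand), H2-Eb1 at chr17:34305747-34305846 (plus strand) and H2-DMb1 at chr17:34153071-34153170 (plus strand). Capitals mark matches, on the printed strand, to ATTGG (the reverse of the CCAAT letters of a Y box), AGNAACNNA (letters of an X box) and TGACGTCA (a cyclic AMP response element, the kind of site found at an X2 box).
H2-Aa: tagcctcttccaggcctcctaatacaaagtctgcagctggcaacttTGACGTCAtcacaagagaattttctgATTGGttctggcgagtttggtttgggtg
H2-Eb1: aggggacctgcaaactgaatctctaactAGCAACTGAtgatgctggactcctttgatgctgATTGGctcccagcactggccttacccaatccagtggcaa
H2-DMb1: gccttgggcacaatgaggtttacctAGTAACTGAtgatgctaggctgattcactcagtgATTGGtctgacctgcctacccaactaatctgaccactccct

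The 3 motifs do not overlap each other, and their letters were chosen after these promoters had been read. Counted on both strands over the 300 bases of each of 32851 entries, ATTGG was found in 37.4%, AGNAACNNA in 16.9% and TGACGTCA in 1.79%. ATTGG stood 48 bases before the start site in H2-Aa, 59 in H2-Eb1 and 61 in H2-DMb1, and H2-Eb1 held the reverse letters as well, 35 bases before the start (in lower case above). AGNAACNNA began 92 bases before the start in H2-Eb1 and 95 in H2-DMb1, which held its reverse as well, across the start site. TGACGTCA stood 74 bases before the start in H2-Aa. AGNAACNNA followed by ATTGG within 60 bases on the gene's strand was found in 113 entries (0.344%), which held those of H2-Eb1 and H2-DMb1 and, outside the 7 genes, those of the class II genes H2-Eb2, H2-Oa and H2-Ob. The first of 2 entries of H2-DMa held none of the 3 motifs and the second held ATTGG 198 bases before its start. A match describes letters and is not a measured site. In the order of protein-coding genes in RefSeq, H2-Ab1, H2-Aa and H2-Eb1 are next to each other, and H2-DMa is followed by H2-DMb2 and H2-DMb1. Between these clusters lie the class I presentation genes Psmb9, Tap1, Psmb8 and Tap2 and then the class II gene H2-Ob.

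No class II probe set passed the test between genotypes. Of the 16, 0 were called at an adjusted p under 0.05 by limma over all probe sets, where 0.933% of probe sets with 1 gene symbol were called and 0.321% were called lower, and 1 had an unadjusted p under 0.05. The share of all probe sets at that unadjusted limit was not counted, so such counts have no background here or below. When limma was run on the varying probe sets only, 0 were called again and 0 had an unadjusted p under 0.05, against 18.8% of probe sets called. All 11 varying class II probe sets were lower on average in LPA4-KO mice, by 0.11 to 0.24 on the log2 scale, with a median of -0.18. The median of all varying probe sets was -0.05, and 56.8% of them were negative. The probe sets share mice and move together, so the 11 signs are not separate pieces of evidence. In whole tissue, fewer cells of a type and less RNA per cell cannot be told apart.

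**Figure D1:**
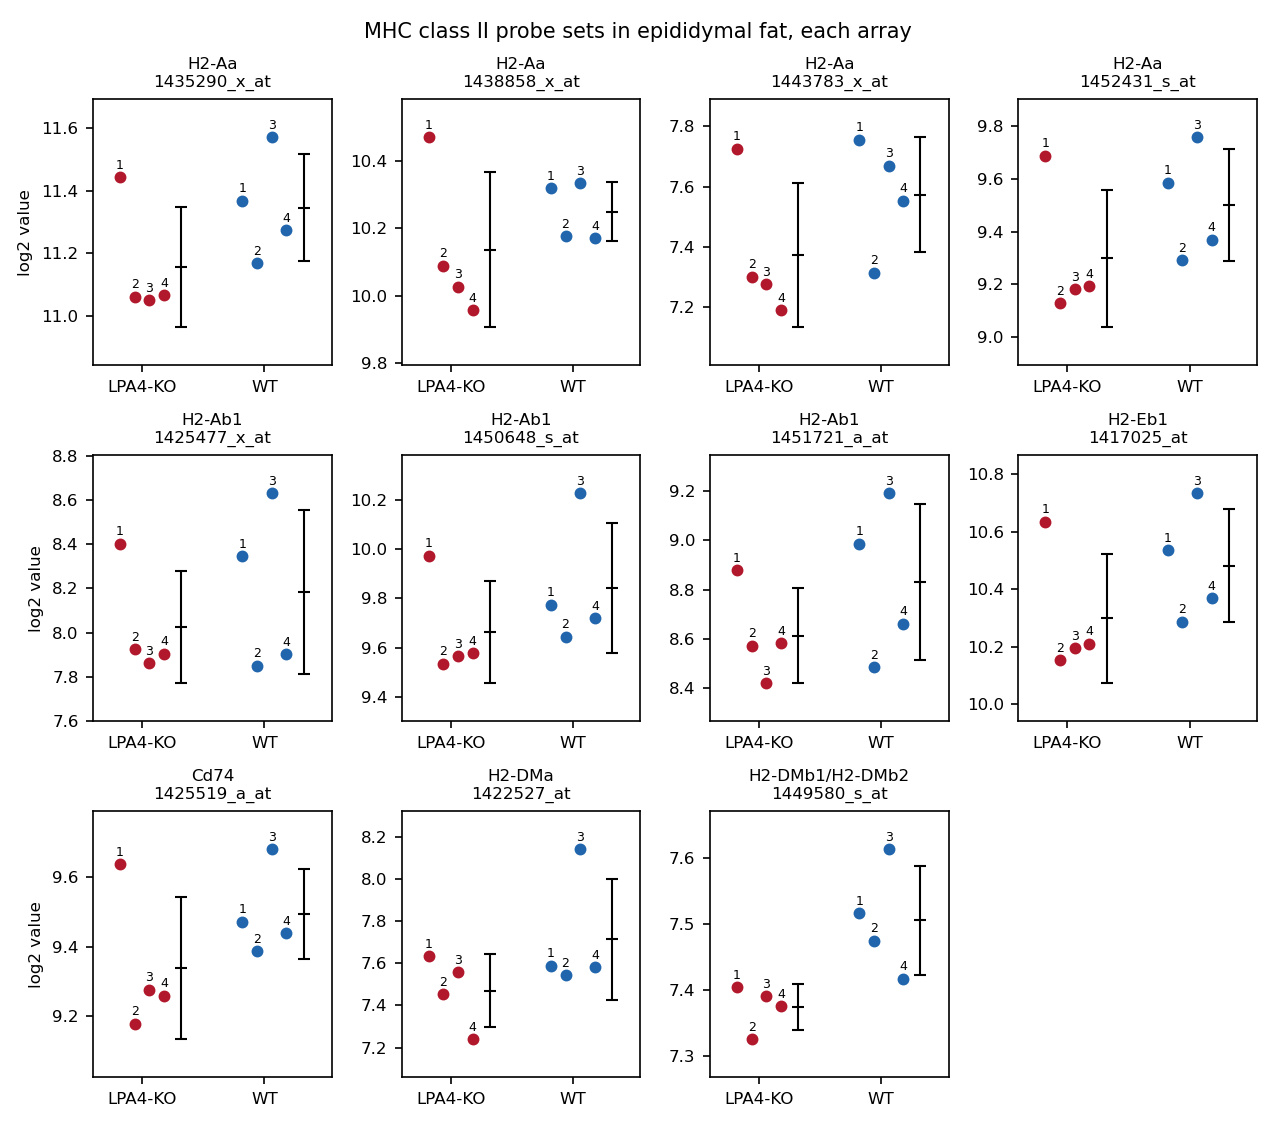
Log2 value (vertical axes, a scale of its own in each panel) of the 11 varying class II probe sets on each array, LPA4-KO left and WT right, with the replicate number beside each point. Black bars give mean ± SD (n = 4). LPA4-KO replicate 1 is the highest LPA4-KO array in all 11 panels and WT replicate 3 the highest WT array in 10.

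H2-Aa encodes the alpha chain of I-A, the class II molecule that C57BL/6 mice do display. At 1435290_x_at the LPA4-KO arrays read 11.44, 11.06, 11.05 and 11.07 and the WT arrays 11.37, 11.17, 11.57 and 11.27. LPA4-KO replicate 1 stood among the higher WT arrays, and the other LPA4-KO arrays lay within 0.02 of each other, below all 4 WT arrays. The difference was -0.19 ± 0.12 (95% interval -0.49 to 0.11, adjusted p = 0.50). At each of its other probe sets LPA4-KO replicates 2 to 4 were again below all 4 WT arrays. Among them 1438858_x_at differed by -0.11 ± 0.12, 1443783_x_at by -0.20 ± 0.15 and 1452431_s_at by -0.20 ± 0.16 (adjusted p from 0.56 to 0.70). The array's naming convention gives the endings x_at and s_at to probe sets whose probes also match other sequences, so signal from related chains may be included.

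H2-Ab1 encodes the beta chain of I-A. At 1450648_s_at its values were 9.97, 9.54, 9.57 and 9.58 in LPA4-KO mice and 9.77, 9.64, 10.23 and 9.72 in WT mice. WT replicate 3 was the highest of the 8 and LPA4-KO replicate 1 came next. The LPA4-KO mean was 9.66 ± 0.21 and the WT mean 9.84 ± 0.26, a difference of -0.18 ± 0.16 (95% interval -0.57 to 0.21, adjusted p = 0.64). At 1451721_a_at the difference was -0.22 ± 0.18 and at 1425477_x_at -0.16 ± 0.22, with the widest interval of the family, from -0.68 to 0.36. At both of these WT replicate 2 lay among LPA4-KO replicates 2 to 4, or below all of them.

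H2-Eb1 encodes the beta chain of I-E and was measured by 1417025_at. The LPA4-KO arrays had 10.63, 10.15, 10.19 and 10.21, and the WT arrays 10.54, 10.29, 10.73 and 10.37. As at H2-Aa, WT replicate 3 and LPA4-KO replicate 1 were the highest, and the other LPA4-KO arrays were below all WT arrays. The LPA4-KO mean was 10.30 ± 0.23 and the WT mean 10.48 ± 0.20 (difference -0.18 ± 0.14, 95% interval -0.53 to 0.16, adjusted p = 0.59).

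Cd74, the invariant chain, was read by 1425519_a_at at 9.64, 9.18, 9.28 and 9.26 in LPA4-KO mice and at 9.47, 9.39, 9.68 and 9.44 in WT mice. Here too LPA4-KO replicate 1 was the only LPA4-KO array within the WT range. The difference was -0.16 ± 0.12 (95% interval -0.44 to 0.12, adjusted p = 0.56).

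H2-DMa, the alpha chain of the peptide-exchange pair, had the largest mean difference and also a single high array. Its probe set 1422527_at read 7.63, 7.45, 7.56 and 7.24 in LPA4-KO mice and 7.59, 7.54, 8.14 and 7.58 in WT mice. WT replicate 3 stood 0.51 above every other array, and the remaining arrays of the groups overlapped. The difference was -0.24 ± 0.16 (95% interval -0.63 to 0.14, adjusted p = 0.51). Its other probe set, 1459872_x_at, was nearly constant at 6.47 in both groups.

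The shared probe set of H2-DMb1 and H2-DMb2, 1449580_s_at, was the only class II probe set whose groups did not overlap. It read 7.40, 7.33, 7.39 and 7.38 in LPA4-KO mice and 7.52, 7.47, 7.61 and 7.42 in WT mice, with the highest LPA4-KO array 0.01 below the lowest WT array. The difference was -0.13 ± 0.04 (95% interval -0.24 to -0.03). It was tested in a limma fit of all annotated probe sets, where 0.931% were called, and did not pass (adjusted p = 0.21). Its exact two-sided permutation p was 0.0286, the smallest that 4 arrays against 4 allow, and those of the other 10 varying class II probe sets ran up to 0.69. Among varying probe sets with 1 gene symbol, 15.4% had all LPA4-KO arrays below all WT arrays, and 28.2% had groups apart in either direction. The second shared probe set, 1418638_at, stood at 7.11 in both groups.

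Ciita gave no usable variation. Its 3 probe sets, 1421210_at, 1421211_a_at and 1447075_at, stood at 6.44, 6.37 and 6.13 in both groups and were all nearly constant. Across the 5 nearly constant class II probe sets no array range exceeded 0.00085 log2. The level of this coactivator on the high and low arrays is therefore not known from the table.

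**Figure D2:**
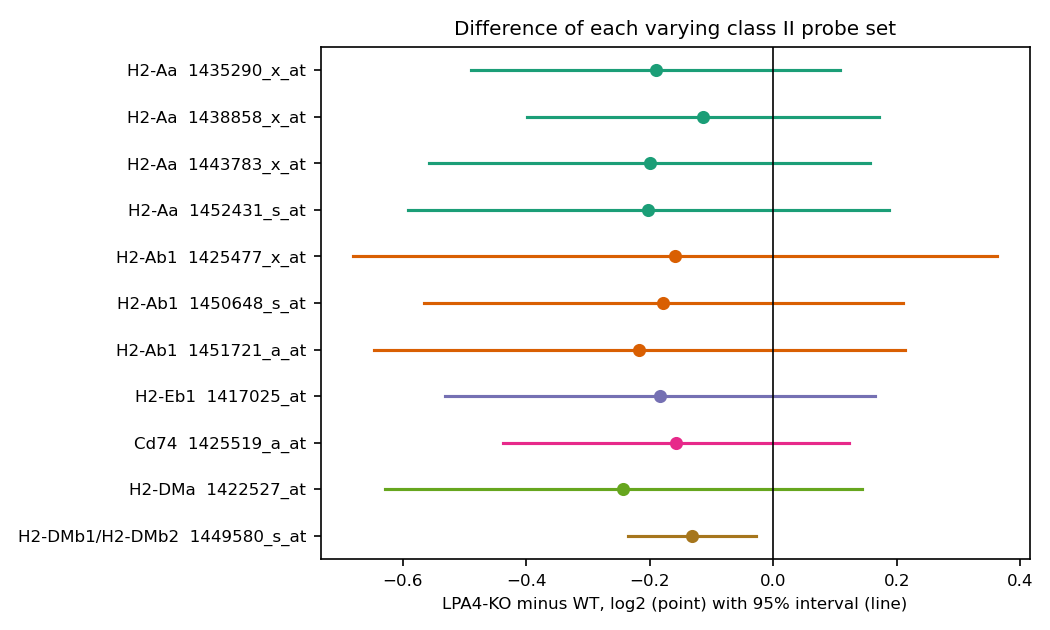
Difference of group means (LPA4-KO minus WT, log2, points) with the 95% interval from limma (lines) for the 11 varying class II probe sets. All points are below 0, and only the interval of the shared H2-DMb1 and H2-DMb2 probe set, -0.24 to -0.03, leaves out 0.

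The spread between mice of a group was close in size to the difference between genotypes. The mean of the 10 varying probe sets with 1 gene symbol was 9.45, 9.04, 9.04 and 9.02 on the LPA4-KO arrays and 9.37, 9.12, 9.59 and 9.20 on the WT arrays. Its SD was 0.21 among LPA4-KO and 0.21 among WT mice, against a difference of group means of -0.18. From lowest to highest array it spanned 0.43 among LPA4-KO and 0.48 among WT mice. LPA4-KO replicate 1 was the highest LPA4-KO array in 11 of 11 varying probe sets, and WT replicate 3 the highest WT array in 10 of 11, the exception being 1443783_x_at. In 8 of 11 the other 3 LPA4-KO arrays lay below all WT arrays. LPA4-KO replicate 1 was set aside here because these same values put it highest. The share of all varying probe sets with such a pattern was not counted, so nothing is concluded from the 8. The within-group SD had a median of 0.22 in the varying class II probe sets and of 0.15 in all varying probe sets with 1 gene symbol.

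The size of the difference depended on single arrays, though never its sign. Without LPA4-KO replicate 1 the median over the 10 probe sets was -0.29 in place of -0.19, and 6 had an unadjusted p under 0.05, but none passed after adjustment (lowest adjusted p = 0.21 by limma, and 0.084 among varying probe sets only). Without WT replicate 3 the median was -0.10, and without each of the other 6 arrays it lay between -0.26 and -0.14.

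**Figure D3:**
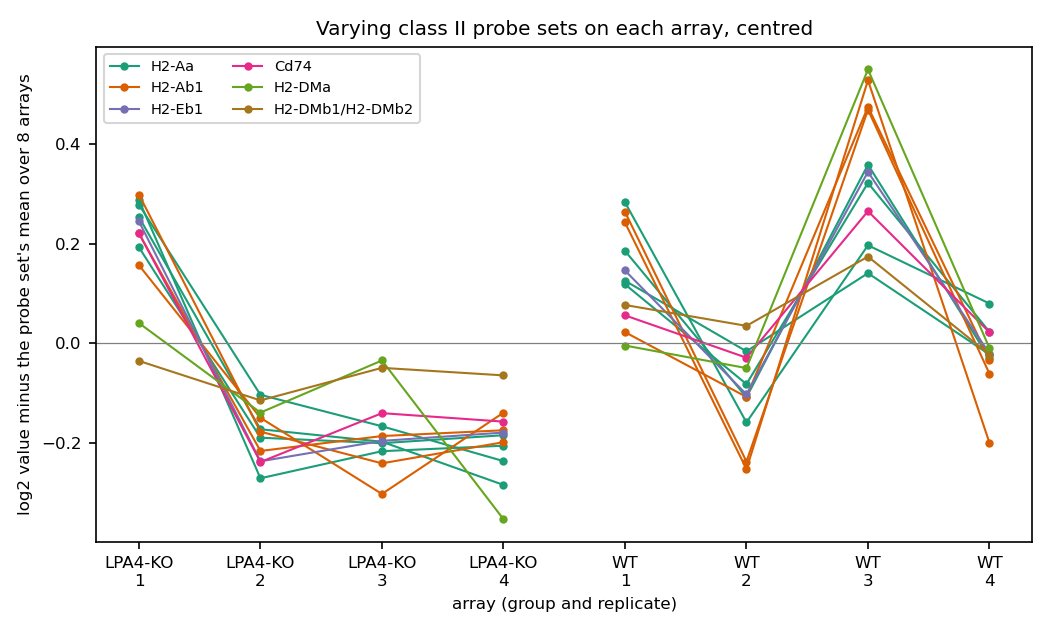
Log2 value minus the probe set's own mean over the 8 arrays (vertical axis) for the 11 varying class II probe sets on each array (horizontal axis, LPA4-KO then WT). Lines join the values of a probe set and carry no order in time. The chains and Cd74 peak on LPA4-KO replicate 1 and WT replicate 3 (for 1443783_x_at of H2-Aa WT replicate 1 is higher still), while H2-DMa (0.04) and the shared H2-DMb1 and H2-DMb2 probe set (-0.04) stay near 0 on the first of these.

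The chains and Cd74 followed each other closely from mouse to mouse. With each group's mean removed, Pearson's r between the 10 varying probe sets with 1 gene symbol had a median of 0.88 over the 8 arrays (45 pairs), and between probe sets of different genes, H2-DMa aside, it ran from 0.719 to 0.998. The shared arrays and, for some chains, shared probe sequence enter these values. H2-DMa was looser, with r from 0.51 to 0.86 to the other members, and r of 0.73 to their mean fell to 0.59 when WT replicate 3 was left out. The shared H2-DMb1 and H2-DMb2 probe set had r from 0.42 to 0.81. Without LPA4-KO replicate 1 the median r between the 10 probe sets was 0.83, and without any other single array it was at most 0.91.

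Of the 4024 varying genes outside the family, the 8 most like the class II mean by this measure were Cog6 (r = 0.98), Pdia6 (0.97), Sdhaf4 (0.96), Bst2 (0.92), Dcaf12 (0.92), Dera (0.91), Irgq (0.90) and Tmem14a (0.89). The measure leaves out the difference between genotypes, and only Bst2 (-0.0051) and Tmem14a (-0.073) were lower in LPA4-KO mice. Cog6 was higher by 0.41 ± 0.08 (adjusted p = 0.080 by limma), and with group means kept in its r was -0.025. Dera was higher by 0.23, Dcaf12 by 0.19, Irgq by 0.17, Pdia6 by 0.045 and Sdhaf4 by 0.019. Cog6 encodes a subunit of a Golgi tethering complex, Bst2 encodes tetherin, an interferon-induced protein of the cell surface, and Pdia6 encodes a protein disulfide isomerase of the endoplasmic reticulum. Pdia6 varied little, between 9.62 and 9.68 on LPA4-KO and 9.57 and 9.62 on WT arrays. Bst2 ran from 7.97 to 8.32 on LPA4-KO arrays and from 8.04 to 8.26 on WT arrays, and in each group its highest array was that of class II, LPA4-KO replicate 1 and WT replicate 3. B2m, the light chain of class I, ranked 9 with r = 0.89, and H2-D1, a class I heavy chain, ranked 11 with r = 0.88. Over 8 arrays and 4024 genes such values carry little weight singly, and leaving out LPA4-KO replicate 1 lowered r to 0.77 for B2m and to 0.84 for Bst2.

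Genes of 2 proteases that can cut antigen or the invariant chain fell in fat of LPA4-KO mice. Among 16 measured genes of the rest of the class II pathway, 2 fell and 0 rose, where 1.06% of all genes were called. An unadjusted p under 0.05 was found for 6, of which H2-DMb2 and H2-Ea were nearly constant. The median over the 11 varying genes of this list was -0.12, against -0.03 over all varying genes. Ctsl, the protease cathepsin L, which can cut the invariant chain, had 11.69, 11.74, 11.87 and 11.81 in LPA4-KO mice and 12.11, 12.12, 12.28 and 12.13 in WT mice (difference -0.38 ± 0.05, adjusted p = 0.041). All LPA4-KO arrays were below all WT arrays. Lgmn, the asparaginyl endopeptidase legumain, had 8.58, 8.72, 8.70 and 8.74 in LPA4-KO mice and 9.0, 9.04, 9.15 and 9.19 in WT mice (difference -0.41 ± 0.06, adjusted p = 0.038), again without overlap. Between mice their r with the class II mean was 0.07 for Ctsl and -0.34 for Lgmn, and LPA4-KO replicate 1 was the lowest array for both. Both calls ended when any 1 array was left out, with the same sign. Calls of all genes fell likewise, to between 10 and 125 probe sets, against 326 with all 8 arrays. Cst3, which encodes the protease inhibitor cystatin C, differed by -0.29 ± 0.09 (adjusted p = 0.18), and H2-Ea, H2-Oa, H2-Eb2 and the thiol reductase gene Ifi30 were nearly constant. Among varying probe sets only, 3 of the 11 fell and 0 rose, beside 10.9% of varying genes called lower. They were Ctsl, Lgmn and Cst3 (adjusted p = 0.040 for Cst3 by limma).

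Of 14 measured regulators of class II transcription, limma called 0, 2 had an unadjusted p under 0.05 and 9 were nearly constant. Nfyb, a subunit of NF-Y, differed by -0.21 ± 0.08 with an unadjusted p of 0.047 (adjusted p = 0.29), the only varying regulator with an unadjusted p under 0.05. Rfx5, a subunit of the RFX complex, differed by -0.25 ± 0.12 (adjusted p = 0.34), Irf1 by -0.15 ± 0.15 and Irf4 by 0.82 ± 0.56, the last with an SD of 0.96 among LPA4-KO mice. Of 7 costimulatory genes 0 were called and 6 were nearly constant (1 unadjusted p under 0.05, that of the nearly constant Cd40). The varying one, Cd274, which encodes an inhibitory ligand of T cells, differed by 0.02 ± 0.03.

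Class I presentation genes showed no called difference either, with 0 of 17 passing in limma (4 with an unadjusted p under 0.05) and 7 of the 13 varying members positive (median 0.05). Calr, the chaperone calreticulin, differed by 0.28 ± 0.05 (adjusted p = 0.069) and Tapbp, the loading factor tapasin, by -0.33 ± 0.08 (adjusted p = 0.13). Among varying probe sets only, these 2 passed in opposite directions (adjusted p = 0.021 and 0.032), where 20.2% of varying genes were called. B2m averaged 12.94 ± 0.06 on LPA4-KO arrays and 12.98 ± 0.05 on WT arrays, and H2-D1 12.45 ± 0.05 on LPA4-KO arrays and 12.52 ± 0.06 on WT arrays. In the likeness to class II between mice, B2m, H2-D1, Calr and the class I gene H2-M3 (4 of 13, H2-M3 being named for this value) had r over 0.7, against 3.20% of all varying genes. The mean of this list was highest on LPA4-KO replicate 1 among LPA4-KO mice (10.03, against 9.72 to 9.89 on the others), while WT replicate 3 (9.86) lay within the other WT arrays (9.76 to 9.89).

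In the interferon gamma list, the pathway known to induce Ciita, 1 of 19 fell and 0 rose, where 1.06% of all genes were called. It was Jak1, a kinase of the interferon gamma receptor, at 9.53, 9.42, 9.43 and 9.41 in LPA4-KO mice and 9.74, 9.68, 9.67 and 9.72 in WT mice (difference -0.26 ± 0.03, adjusted p = 0.032). The groups did not overlap, and its call held without LPA4-KO replicate 1 and ended without any other single array. Fits without 1 array called 10 to 125 probe sets in all, against 326 with every array. Ifngr2 differed by -0.27 ± 0.10 (adjusted p = 0.27) and Ifngr1 by 0.03 ± 0.11. Ifng itself was nearly constant at 5.72. The median over the 17 varying members was -0.04, and their median r with the class II mean was 0.48, against 0.02 over all varying genes. Their mean level was highest on LPA4-KO replicate 1 among LPA4-KO arrays (8.54, against 8.02 to 8.35 on the others). WT replicate 3 (8.40) lay within the other WT arrays (8.28 to 8.54).

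**Figure D4:**
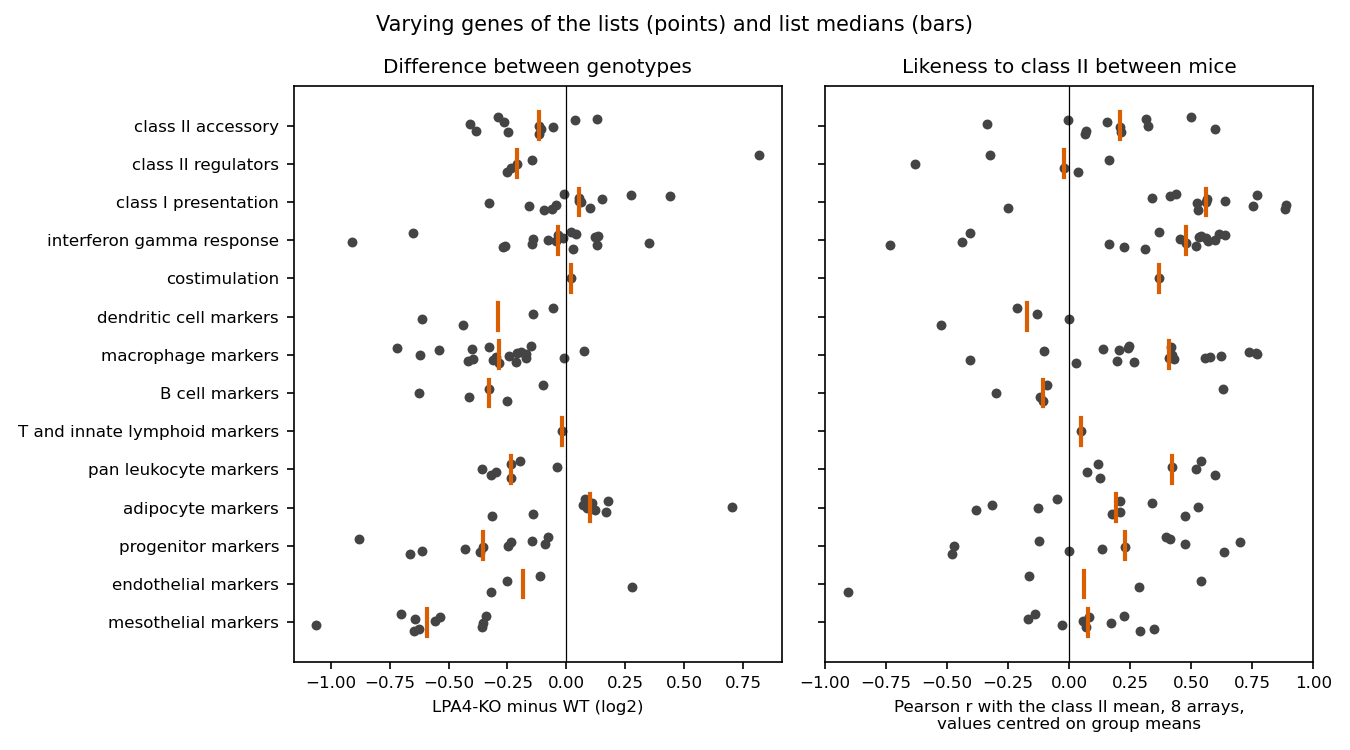
Varying genes of the 14 lists (rows), as points, with orange bars at list medians. The left panel gives the difference LPA4-KO minus WT (log2), and the right panel Pearson's r with the mean of 10 class II probe sets over 8 arrays, after removal of group means. Macrophage markers lie mostly below 0 on the left, with a median of -0.29, and class I genes have the highest median r on the right, 0.56.

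Markers of the cells that carry class II were set beside these values, and their part in the class II levels was not tested. Macrophage markers were negative in 18 of 19 varying members of 23 measured, with a median of -0.29. In limma 0 were called over all probe sets (9 with an unadjusted p under 0.05, a count without a background share). Among varying probe sets only, 7 fell and 0 rose, where 10.9% of varying genes fell. Their mean level ran from 9.22 to 9.44 on LPA4-KO arrays and from 9.41 to 9.74 on WT arrays. WT replicate 3 was the highest WT array, but LPA4-KO replicate 1 (9.34) was not the highest LPA4-KO array. Lyz2, the macrophage lysozyme, differed by -0.42 ± 0.09, Retnla by -0.54 ± 0.11 and Mpeg1 by -0.31 ± 0.05 (adjusted p from 0.060 to 0.098). The complement genes C1qa, C1qb and C1qc, named for their likeness after values were seen, had r of 0.77, 0.76 and 0.74 with the class II mean and differed by -0.17 to -0.21. They were the only 3 of the 19 varying macrophage markers with r over 0.7, against 3.20% of all varying genes. The list's r had a median of 0.41, against 0.02 over all varying genes, and reached down to -0.41 (Mpeg1), with 0.19 for Lyz2 and 0.20 for Retnla.

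Dendritic cell markers had 4 varying members of 12, all negative (median -0.29), with 0 called by limma over all probe sets (2 with an unadjusted p under 0.05) and 2 lower among varying probe sets only, Dpp4 (-0.61 ± 0.14) and Cd209a (-0.44 ± 0.11), beside 10.9% of varying genes called lower. Dpp4 also marks progenitors and stands in that list as well. Sirpa differed by -0.06 ± 0.05. Their mean level ran from 7.13 to 7.33 on LPA4-KO arrays and from 7.47 to 7.65 on WT arrays, with LPA4-KO replicate 1 the lowest of all 8 arrays. B cell markers had 5 varying members of 12, all negative, with 0 called (1 unadjusted p under 0.05, that of the nearly constant Pax5). Among the 7 nearly constant ones were Cd79a, Cd22 and Pax5, as were Itgax, Flt3 and Xcr1 of the dendritic cell list and Adgre1 of the macrophage list. The immunoglobulin gene Ighm differed by -0.62 ± 0.88, and by 0.062 without WT replicate 1, the array with the highest mean of this list (8.63, against 7.52 to 7.68 on the other WT arrays). The differences of the others were -0.41 ± 0.26 for Cd79b, -0.33 ± 0.18 for Bank1 and -0.10 ± 0.08 for Ebf1. The list averaged 7.22 to 7.99 on LPA4-KO and 7.52 to 8.63 on WT arrays, with LPA4-KO replicate 1 again the lowest. Of 13 T cell and innate lymphoid markers only Il7r varied (-0.02 ± 0.15), and the CD3 genes, Cd4 and Foxp3 were nearly constant. Limma called 0, and the 3 with an unadjusted p under 0.05, Cd3e, Cd28 and Foxp3, were all nearly constant.

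Of 8 genes of leukocytes in general, 7 varied and all 7 were negative (median -0.24). Over all probe sets 0 of the 8 were called. An unadjusted p under 0.05 was held by 7, among them the nearly constant Rac2 and not the varying Cd48 (-0.04 ± 0.04). The share of all genes at that limit was not counted, so nothing is concluded from the 7. Among varying probe sets only, 1 of 7 was called, Cd53 (-0.30 ± 0.08), beside 10.9% of varying genes called lower and 20.2% in either direction. Ptprc, the leukocyte common antigen CD45, differed by -0.24 ± 0.09 and Arhgdib by -0.20 ± 0.05. The mean of the list was 7.90 to 8.20 on LPA4-KO and 8.20 to 8.35 on WT arrays. LPA4-KO replicate 1, at 8.08, was within the range of the other LPA4-KO arrays.

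Among the other cell types of the pad, 0 of 12 adipocyte markers were called by limma over all probe sets, and 3 had an unadjusted p under 0.05. Slc2a4, the insulin-responsive glucose transporter, differed by 0.70 ± 0.20 (adjusted p = 0.16), and 8 of 10 varying members were positive (median 0.10). In the progenitor list, beside 1.06% of all genes called, 2 of 11 fell, Dpt (-0.43 ± 0.04) and Fn1 (-0.88 ± 0.13), and all 11 were negative, with Dcn at -0.25 ± 0.09 and Col3a1 at -0.23 ± 0.22. The call of Dpt held without WT replicate 1 and ended without any other array, and that of Fn1 ended without any 1 array. Such fits called 10 to 125 probe sets in all, against 326 with every array. Of 10 endothelial genes 0 were called and 2 had an unadjusted p under 0.05, Egfl7 (-0.11 ± 0.04) and the nearly constant Tek. Emcn differed by 0.28 ± 0.12 (adjusted p = 0.32). Each of 10 mesothelial markers had a negative difference (median -0.59), with 0 called over all probe sets. An unadjusted p under 0.05, a limit without a background share, was held by 6, among them Gpm6a (-1.06 ± 0.29), Upk3b (-0.62 ± 0.22) and Lrrn4 (-0.54 ± 0.18). Among varying probe sets only, 5 of 11 progenitor and 3 of 10 mesothelial markers fell and 0 rose, beside 10.9% of varying genes called lower. Of the adipocyte markers 1 rose and 0 fell there, and 0 endothelial genes were called.

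As a measure of RNA integrity, Gapdh control probe sets of the 3′ end exceeded those of the 5′ end by 0.571 on LPA4-KO replicate 1 and by 0.581 on WT replicate 3, within the range of the 8 arrays from 0.556 to 0.629. The same measure for Actb was 1.32 on LPA4-KO replicate 1 and 1.14 on WT replicate 3, and ran from 1.21 to 1.33 on LPA4-KO arrays and from 1.14 to 1.22 on WT arrays. Its part in the class II levels was not tested.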

How the data were processed

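The deposited table holds 1 value per probe set and array, used as log2 values; the background correction, normalization and log base used by the authors were not given in the sources used here, and R 2.14.0 is named in the submitters' processing notes. The log2 reading rests on values between 5.27 and 14.07, so every fold does too. Gene symbols came from GEO's annotation of the platform. Groups and replicate numbers came from sample titles, which call them biological replicates.

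LPA4-KO and WT arrays entered a linear model (lmFit, eBayes with a trend; limma 3.58.1, R 4.3.3) over the 34945 probe sets with 1 gene symbol, with Benjamini-Hochberg adjusted p under 0.05 as the call; all adjusted p-values are from limma. For a gene with several probe sets, the lists use the one of highest mean. The share of all probe sets with an unadjusted p under 0.05 was not counted, so counts at that limit have no background beside them. The named genes are all members, Lpar4, the called members of each of 14 lists, their 2 members with the smallest p and 2 with the highest mean among varying genes, and the 8 genes most like the class II mean. The members, lists and the limit of 0.1 log2 were chosen with earlier results of these data known. Same-numbered arrays were not paired: the correlation of their deviations ran from -0.20 to 0.27. The fit was tested on simulated data. The number of arrays limits the precision.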

Additional observations from a re-analysis of the deposited data

Results flagged for a closer look

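Among the 22 sets of 4 arrays formed by the 11 varying class II probe sets in each genotype, 6 held an array whose gap to its nearest neighbour was a larger share of the range of its group than Dixon's 95% critical value for 4 allows. Chance alone marks about 1 in 20 such sets, and these sets share mice and are not independent. In 5 of the 6 it was LPA4-KO replicate 1, high at H2-Aa (11.44 at 1435290_x_at and 9.69 at 1452431_s_at), at H2-Ab1 (8.40 at 1425477_x_at and 9.97 at 1450648_s_at) and at H2-Eb1 (10.63 at 1417025_at). The other was WT replicate 3, high at H2-DMa (8.14 at 1422527_at).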

How the results depend on the processing

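In all 275 values of the 10 varying class II probe sets with 1 gene symbol under the alternatives run, the difference stayed negative, between -0.33 and -0.01, and none passed the threshold (lowest adjusted p = 0.084). After quantile normalization 3 class II probe sets were called, all of Ciita and nearly constant, with differences of at most 0.0040 log2 (adjusted p from 0.033 to 0.049), and 19712 probe sets in all, against 326 as deposited. After median centring the median difference between genotypes over all probe sets with 1 gene symbol was 0.0044 log2, against 2.4e-05 as deposited. With each array left out the median over the 14 class II probe sets lay between -0.28 and -0.09, and 0 were called. Of the 180 list genes 5 were called. This count was 24 among varying probe sets only (24 with shared probe sets included, 25 with a replicate block), 77 after quantile normalization, 3 with robust estimation, 9 at an adjusted p under 0.1 and 0 with the replicate block over all probe sets, where 3 probe sets were called in all. With each array left out it was 0 to 1 over all probe sets, where 10 to 125 probe sets were called in all. Among varying ones it was 13, 15, 13 and 14 without LPA4-KO replicates 1 to 4 and 23, 20, 12 and 20 without WT replicates 1 to 4. The cause was not tested. The difference of H2-D1 turned to 0.0038 after quantile normalization and that of Il7r to 0.071 with array weights. With an array left out, over all or varying probe sets alike, signs turned for Il7r (-0.129 to 0.108; 0.0321 without LPA4-KO replicate 1, 0.00125 without LPA4-KO replicate 4), Ighm (-1.14 to 0.062), Ifngr1 (-0.0345 to 0.0950; -0.0254 without LPA4-KO replicate 4) and Cd274 (-0.0020 to 0.0397). Alternatives that combine varying probe sets with a left-out array or the block, or add shared probe sets, were chosen after seeing the data. Signal over background could not be tested from the table.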
